A study of Mus musculus with 5 samples.

Results

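The genes described here are 10 regulators of cell death and survival: Bcl2, Bcl2l1, Mcl1, Bcl2l11, Bid, Bad and Bak1 of the BCL2 family, and the inhibitor of apoptosis (IAP) genes Birc2, Birc3 and Xiap. They were taken as every non-control array probe whose listed transcript maps to one of these symbols, which gave 14 of 55681 probes. Bcl2l1, Mcl1, Bcl2l11 and Bad had a pair of probes each and the other 6 genes had 1. The measurements are 1-colour Agilent arrays of RNA from adherent peritoneal macrophages of 8 week old mice. There were 2 arrays of c-Jun-deleted mice (titled 1 and 9) and 3 arrays of wild-type littermates (titled 5, 11 and 14), all on a mixed 129/C57Bl6 background and of either sex. The c-Jun-deleted mice carried floxed c-Jun alleles and 1 copy of LysM-Cre, a recombinase placed in the lysozyme gene of myeloid cells, per the genotype labels, while their source names give Mx in place of LysM. LysM-Cre is active in macrophages and neutrophils, and lymphocytes in the same dish are not its target. As the labels differ on the recombinase, whether lymphocytes of these mice kept c-Jun is not known here. The source names count the mice separately, as 1 and 2 for c-Jun-deleted and 1, 2 and 4 for wild-type. Were the samples not separate animals, a p-value would describe technical spread alone.

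BCL2 family proteins set whether the outer membrane of mitochondria is opened during apoptosis. Bcl2, Bcl-xL (the main product of Bcl2l1) and Mcl1 hold the membrane closed, Bak1 is a pore former that opens it, and the BH3-only proteins Bim (from Bcl2l11), Bid and Bad bind the survival proteins or activate the pore formers. Xiap inhibits caspases directly, whereas Birc2 and Birc3 are ubiquitin ligases of the TNF receptor complex, and Birc3 is a known target of NF-kB. c-Jun is a subunit of AP-1, which binds the motif TGANTCA, and as a dimer with ATF proteins it binds TGACGTCA.

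The promoters of all 10 genes were read from RefSeq (GRCm38.p6) as windows from 250 bases before to 50 after each annotated start, 17 windows in all. The AP-1 letters TGANTCA were found in 0 of these 17 windows on either strand, and in 7.81% of the 32851 windows of all genes. TGACGTCA was in 1 of 17 (1.79% of all windows), the NF-kB motif in 2 of 17 (1.63%) and the forkhead letters TGTTTAC in 1 of 17 (3.65%), both strands searched. TGACGTCA lay 35 bases before a start of Birc2. The NF-kB motif lay 28 bases before the start of Mcl1 and 218 bases before 1 start of Bcl2l1. The forkhead letters lay 227 bases before a start of Bcl2l11. No search motif overlapped another there, a match is a description of letters and not a bound site, and a window without a match says nothing about elements elsewhere. The windows below are shown because these genes carry the results that follow: the neighbouring IAP genes Birc2 and Birc3, the survival genes Mcl1 and Bcl2, and Bcl2l11. Capitals mark the motif letters, and all windows run 5′ to 3′ on the gene's strand.
Birc2, chr9:7837008-7837307, minus strand: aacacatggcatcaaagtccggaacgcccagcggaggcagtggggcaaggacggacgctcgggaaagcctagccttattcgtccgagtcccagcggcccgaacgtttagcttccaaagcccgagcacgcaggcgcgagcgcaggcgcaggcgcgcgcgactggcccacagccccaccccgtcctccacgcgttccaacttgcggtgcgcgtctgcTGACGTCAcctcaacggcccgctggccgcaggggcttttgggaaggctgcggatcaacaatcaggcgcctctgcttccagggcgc
Birc3, chr9:7873121-7873420, minus strand: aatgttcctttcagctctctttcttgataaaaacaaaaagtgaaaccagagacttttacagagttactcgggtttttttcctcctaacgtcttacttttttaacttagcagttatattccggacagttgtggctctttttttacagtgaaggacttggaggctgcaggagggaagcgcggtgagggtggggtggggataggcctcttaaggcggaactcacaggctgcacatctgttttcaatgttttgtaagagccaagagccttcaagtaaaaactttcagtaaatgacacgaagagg
Mcl1, chr3:95658471-95658770, plus strand: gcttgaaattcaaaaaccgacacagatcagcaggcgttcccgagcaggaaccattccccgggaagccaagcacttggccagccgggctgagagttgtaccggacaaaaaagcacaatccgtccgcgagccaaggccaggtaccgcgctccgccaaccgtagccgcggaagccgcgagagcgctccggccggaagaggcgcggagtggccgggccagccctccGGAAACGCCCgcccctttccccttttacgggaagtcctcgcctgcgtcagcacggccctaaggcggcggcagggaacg
Bcl2, chr1:106714241-106714540, minus strand: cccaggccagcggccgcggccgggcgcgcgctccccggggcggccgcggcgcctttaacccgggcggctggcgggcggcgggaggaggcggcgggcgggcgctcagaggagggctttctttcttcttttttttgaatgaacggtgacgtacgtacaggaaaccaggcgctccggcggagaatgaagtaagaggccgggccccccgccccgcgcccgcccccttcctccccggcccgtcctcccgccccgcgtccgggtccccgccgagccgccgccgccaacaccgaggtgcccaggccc
Bcl2l11, chr2:128125788-128126087, plus strand: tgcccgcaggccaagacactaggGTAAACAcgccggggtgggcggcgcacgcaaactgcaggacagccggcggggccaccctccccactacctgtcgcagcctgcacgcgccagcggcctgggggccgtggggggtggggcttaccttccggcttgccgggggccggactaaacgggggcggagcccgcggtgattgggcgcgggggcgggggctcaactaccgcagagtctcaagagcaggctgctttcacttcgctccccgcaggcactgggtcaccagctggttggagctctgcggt
Among the windows shown, those of Bcl2 and Birc3 lay at the ends in base composition. That of Bcl2 had 44 CpG dinucleotides and 76.0% G or C, and that of Birc3 had 7 and 43.0%.

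Values are log2 of the background-subtracted signal minus log2 of the array's 75th percentile, so 0 is the level of that percentile, and a difference is c-Jun-deleted minus wild-type. All 14 probes were well above background on all 5 arrays, so none was removed by the filter on low values. No level is set against that of another probe, because probes differ in brightness for the same amount of RNA. Arrays of mixed cells cannot tell fewer cells of a type from less RNA per cell. All 10 macrophage markers looked for, such as Adgre1 and Csf1r, were well above background on all 5 arrays. Slide 1 held c-Jun-deleted 1 and wild-type 5, and slide 2 held c-Jun-deleted 9, wild-type 11 and wild-type 14. The targeted gene Jun stood at 2.76 and 2.71 in c-Jun-deleted macrophages, against 3.21, 3.75 and 3.17 in wild-type, a difference of -0.64 (SE 0.23, limma adjusted p = 0.384). Whether the Jun probe lies in the deleted part is not known here.

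The comparison asks whether macrophages of c-Jun-deleted mice differ from wild-type ones in these genes. The lowest p among the members was that of Birc3, whose mean was 1.50-fold lower in c-Jun-deleted macrophages, followed by 1 of the probes of Bcl2l11, 1.44-fold lower. Among the survival genes Bcl2, Bcl2l1 and Mcl1, Bcl2 was the one whose values lay higher in both c-Jun-deleted mice, 1.37-fold by the means. None of these differences passed the test: limma called 0 of 14 probes at an adjusted p below 0.05, and 0% of all 32608 probes tested. The members' adjusted p-values ran from 0.333 to 0.900. At an unadjusted p below 0.05 there were 2 of the 14 probes, both lower, where 12.3% of all probes tested lay in either direction, 6.66% lower and 5.68% higher.

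**Figure D1:**
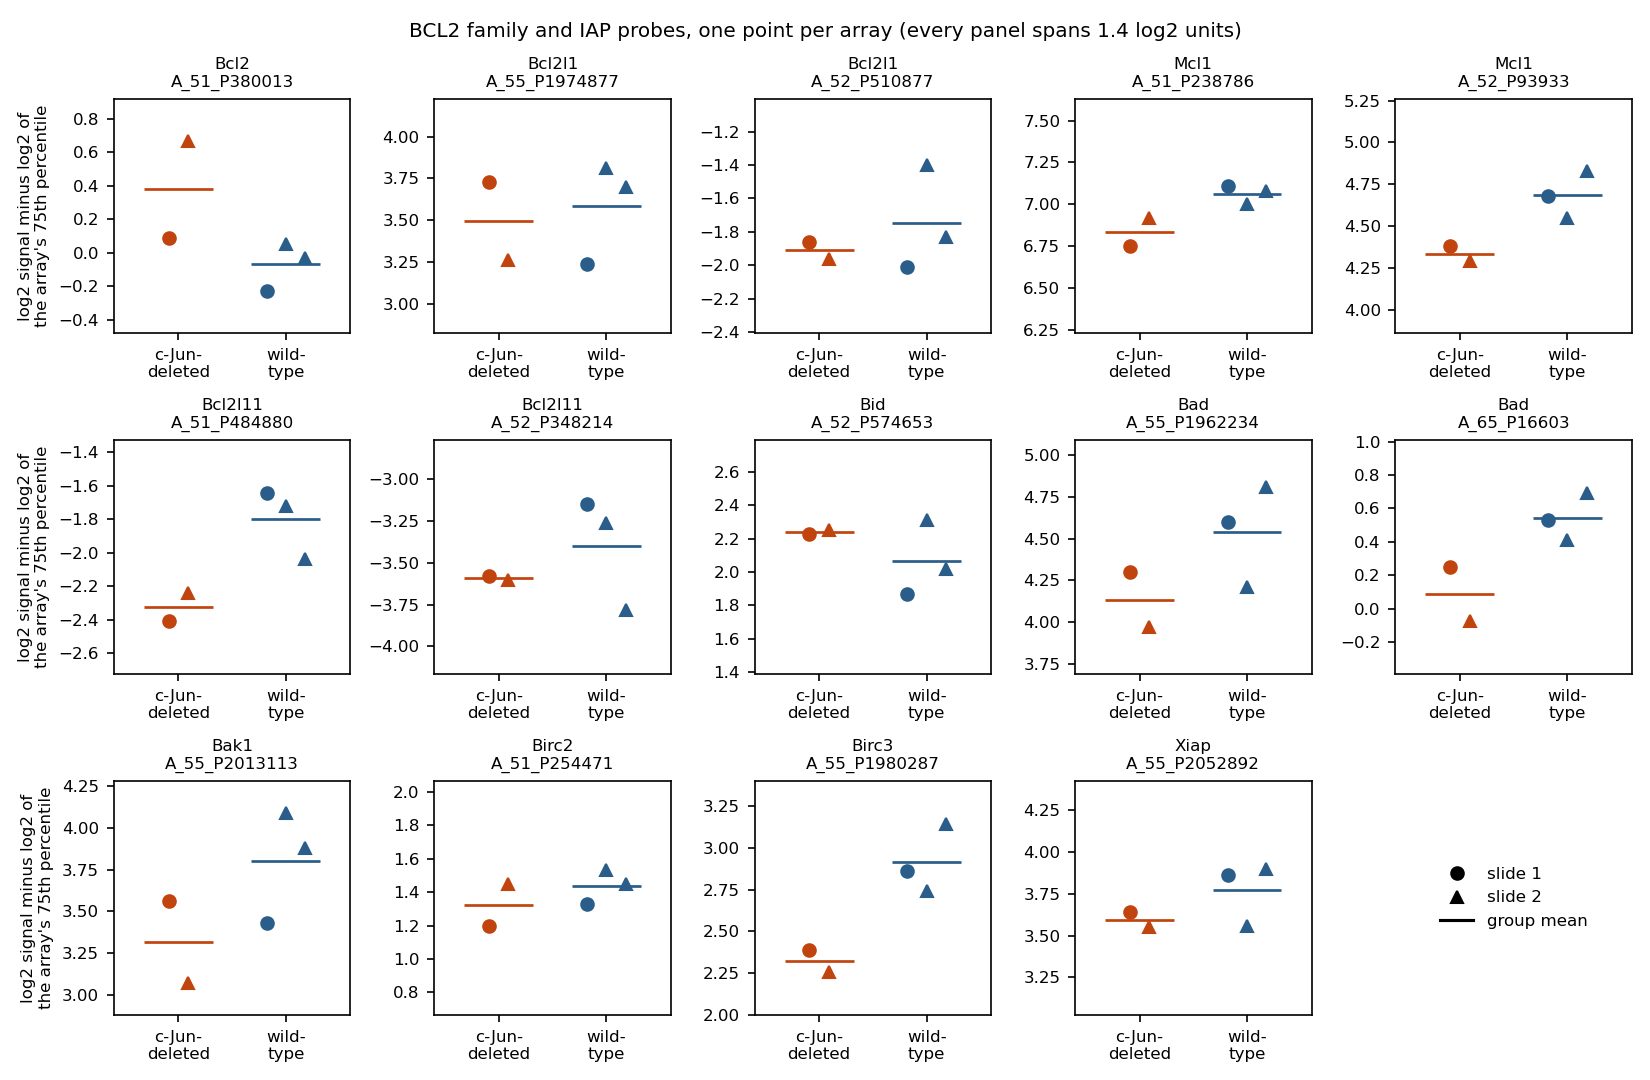
Each panel plots 1 probe of a BCL2 family or IAP gene, with log2 signal relative to the array's 75th percentile on the vertical axis, the 2 c-Jun-deleted arrays on the left, the 3 wild-type arrays on the right, and a line at each group mean. In Birc3, Mcl1, 1 Bcl2l11 probe and 1 Bad probe both c-Jun-deleted points lie below every wild-type point, and in Bcl2 both lie above.

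Groups did not overlap for 6 of the 14 probes, and for 33.8% of all probes tested. Of these 6, 5 were lower in c-Jun-deleted macrophages (20.5% of all probes) and 1 was higher (13.3%). With so few probes the members' share of 42.9% is near that of all probes. Over the 10 genes, each by its brighter probe, the median difference was -0.20, and the median of all probes was -0.09. The difference was below 0 for 12 of 14 probes, as it was for 61.3% of all probes, but with arrays centred on their medians, which moved all probes up by 0.21, it was below 0 for 7 of 14. Relative to the median of all probes, 12 of 14 lay lower with the 75th percentile. That centring moves all probes equally, so it gives the same count by construction. The count was 12 of 14 with quantile normalization and 9 of 14 with normexp background correction.

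Among the survival proteins, Bcl2, the founding member of the family and abundant in lymphocytes, stood at 0.09 and 0.67 in c-Jun-deleted 1 and 9. Wild-type 5, 11 and 14 had -0.23, 0.05 and -0.03. The groups did not overlap, but c-Jun-deleted 1 lay only just above wild-type 11, and the c-Jun-deleted arrays differed from each other more than the wild-type ones did. The group means were 0.38 ± 0.40 (SD, n = 2) in c-Jun-deleted and -0.07 ± 0.15 (SD, n = 3) in wild-type macrophages. The difference was 0.45 (SE 0.23, 95% interval -0.14 to 1.04, limma adjusted p = 0.475). It was 0.33 within slide 1, 0.65 within slide 2, and 0.66 with median centring (unadjusted p = 0.0350). Leaving out c-Jun-deleted 1 gave 0.73, and leaving out c-Jun-deleted 9 gave 0.16.

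Markers of B cells, in which Bcl2 supports survival, differed between the groups in the same direction as Bcl2. All 18 of 18 B cell markers lay higher in c-Jun-deleted macrophages, with a median difference of 2.42, and 17 of them were well above background on all 5 arrays. Their summed signal, in multiples of each array's 75th percentile, was 417 and 614 in c-Jun-deleted 1 and 9, against 121, 104 and 65.4 in wild-type 5, 11 and 14. The array with the highest sum, c-Jun-deleted 9, also had the highest Bcl2. Within wild-type the order differed: wild-type 5 had the highest sum but the lowest Bcl2 (-0.23). Bcl2 was 0.05 in wild-type 11 and -0.03 in wild-type 14, which had the lowest sum. T and NK cell markers summed to 51.6 and 70.3 in c-Jun-deleted macrophages, against 19.5, 43.4 and 14.6 in wild-type, with 9 of 13 higher. Groups did not overlap for 3 of the 13, 2 higher and 1 lower (33.8% of all probes tested). Cd2, the largest part of the sum in c-Jun-deleted macrophages, was among the higher ones (5.06 and 5.44, against 3.46, 3.31 and 2.50). Cd3e overlapped, at 1.32 and 1.81, against 0.67, 2.46 and 0.71. The part of B, T or NK cells in the Bcl2 result was not tested.

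**Figure D2:**
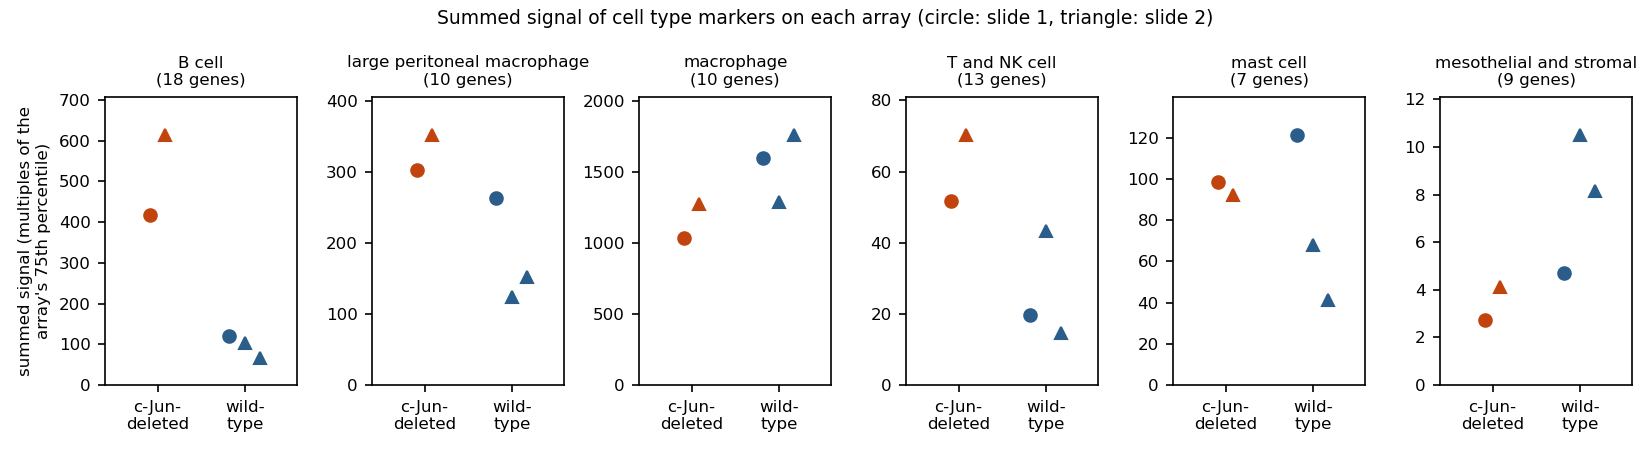
Summed signal of 6 lists of cell type markers on each array, in multiples of the array's 75th percentile, with c-Jun-deleted arrays on the left and wild-type arrays on the right of each panel (circles slide 1, triangles slide 2). B cell markers lie at 417 and 614 in c-Jun-deleted and at most at 121 in wild-type macrophages, while mesothelial and stromal markers lie lower in c-Jun-deleted macrophages.

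Mcl1, a short-lived survival protein, gave the smallest standard error of the members. On its brighter probe, A_51_P238786, it stood at 6.75 and 6.92 in c-Jun-deleted macrophages, against 7.11, 7.0 and 7.08 in wild-type. On the other, A_52_P93933, it stood at 4.38 and 4.29, against 4.68, 4.55 and 4.83. Both probes thus placed both c-Jun-deleted mice below every wild-type mouse, by small amounts. The differences were -0.23 (SE 0.14, 95% interval -0.59 to 0.14) and -0.35 (SE 0.15, 95% interval -0.75 to 0.05), with limma adjusted p-values of 0.537 and 0.434. With median centring they were -0.018 and -0.14, so the brighter probe then had nearly equal means.

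Bcl2l1, which encodes Bcl-xL, had overlapping groups on both probes. A_55_P1974877 stood at 3.73 and 3.26 in c-Jun-deleted macrophages, against 3.24, 3.81 and 3.70 in wild-type, and A_52_P510877 at -1.86 and -1.96, against -2.01, -1.40 and -1.83. The differences were -0.09 (95% interval -0.76 to 0.58) and -0.17 (95% interval -0.75 to 0.42), intervals that allow a change of either sign. The sign turned with the slide: the differences were 0.48 and 0.15 on slide 1, but -0.50 and -0.35 on slide 2.

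Of the BH3-only genes, Bcl2l11, whose product Bim drives the death of many leukocytes, had the lower p. Its brighter probe, A_51_P484880, stood at -2.41 and -2.24 in c-Jun-deleted macrophages, against -1.64, -1.72 and -2.04 in wild-type. Both c-Jun-deleted values lay below all wild-type values. The difference was -0.52 (SE 0.19, 95% interval -1.01 to -0.04, unadjusted p = 0.0380, limma adjusted p = 0.379). It was -0.77 within slide 1, -0.36 within slide 2 and -0.31 with median centring (unadjusted p = 0.172). The other probe, A_52_P348214, is listed against a different transcript of the gene and stood at -3.58 and -3.60, against -3.15, -3.26 and -3.78. Here wild-type 14 lay below both c-Jun-deleted arrays, and the difference was -0.19 (SE 0.23, adjusted p = 0.747).

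Bad, a BH3-only protein held inactive by phosphorylation in growth-factor signalling, had similar differences on its probes. A_55_P1962234 stood at 4.30 and 3.97 in c-Jun-deleted macrophages, against 4.60, 4.21 and 4.81 in wild-type, with wild-type 11 between the c-Jun-deleted arrays. A_65_P16603 stood at 0.25 and -0.07, against 0.53, 0.41 and 0.69, with no overlap. The differences were -0.40 (SE 0.24) and -0.45 (SE 0.18), with limma adjusted p-values of 0.527 and 0.412. Without c-Jun-deleted 9 they were -0.24 and -0.29, and with median centring -0.19 and -0.24.

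Bid, which caspase 8 cleaves to link death receptors to mitochondria, stood at 2.23 and 2.25 in c-Jun-deleted macrophages, against 1.87, 2.31 and 2.02 in wild-type. Both c-Jun-deleted values lay inside the wild-type range (difference 0.18, SE 0.18, 95% interval -0.30 to 0.65, limma adjusted p = 0.703). Bid and Bcl2 were the only members among the 10 genes whose mean was higher in c-Jun-deleted macrophages with the 75th percentile scaling.

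The pore former Bak1 varied most over the arrays, by 1.02 from the lowest to the highest. It stood at 3.56 and 3.07 in c-Jun-deleted macrophages, against 3.43, 4.09 and 3.88 in wild-type. Wild-type 5 lay below c-Jun-deleted 1, so the groups overlapped (difference -0.49, SE 0.27, 95% interval -1.20 to 0.23, limma adjusted p = 0.508). The arrays of slide 1 gave a difference of 0.13 and those of slide 2 one of -0.91. Without c-Jun-deleted 9 it was -0.24, and with median centring -0.27.

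Among the IAP genes, Birc3 stood at 2.39 and 2.26 in c-Jun-deleted macrophages, against 2.86, 2.74 and 3.14 in wild-type. Both c-Jun-deleted arrays lay well below the lowest wild-type array and close to each other. The means were 2.33 ± 0.09 (SD, n = 2) in c-Jun-deleted and 2.91 ± 0.20 (SD, n = 3) in wild-type macrophages. The difference was -0.59 (SE 0.18, 95% interval -1.05 to -0.12, unadjusted p = 0.0226, limma adjusted p = 0.333). It was -0.47 within slide 1 and -0.68 within slide 2, and between -0.67 and -0.48 with any 1 array left out. With median centring it was -0.38 (unadjusted p = 0.234), and with the slide as a block the unadjusted p was 0.0530.

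Birc2, the neighbour of Birc3 on the same chromosome and strand and its closest relative here in function, stood at 1.20 and 1.45 in c-Jun-deleted macrophages, against 1.33, 1.53 and 1.45 in wild-type. The groups overlapped (difference -0.12, SE 0.16, 95% interval -0.52 to 0.29, limma adjusted p = 0.777). Xiap stood at 3.64 and 3.55 in c-Jun-deleted macrophages, against 3.86, 3.56 and 3.90 in wild-type, again with overlap (-0.18, SE 0.17, 95% interval -0.62 to 0.26, limma adjusted p = 0.675). Xiap is X-linked, and wild-type 11, the lowest wild-type array, was the one array with Y-linked Eif2s3y at 3.27 (-7.94 and -6.66 in c-Jun-deleted, -7.02 and -6.97 in the other wild-type arrays). The part of sex in the values of Xiap or of any other member was not tested.

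**Figure D3:**
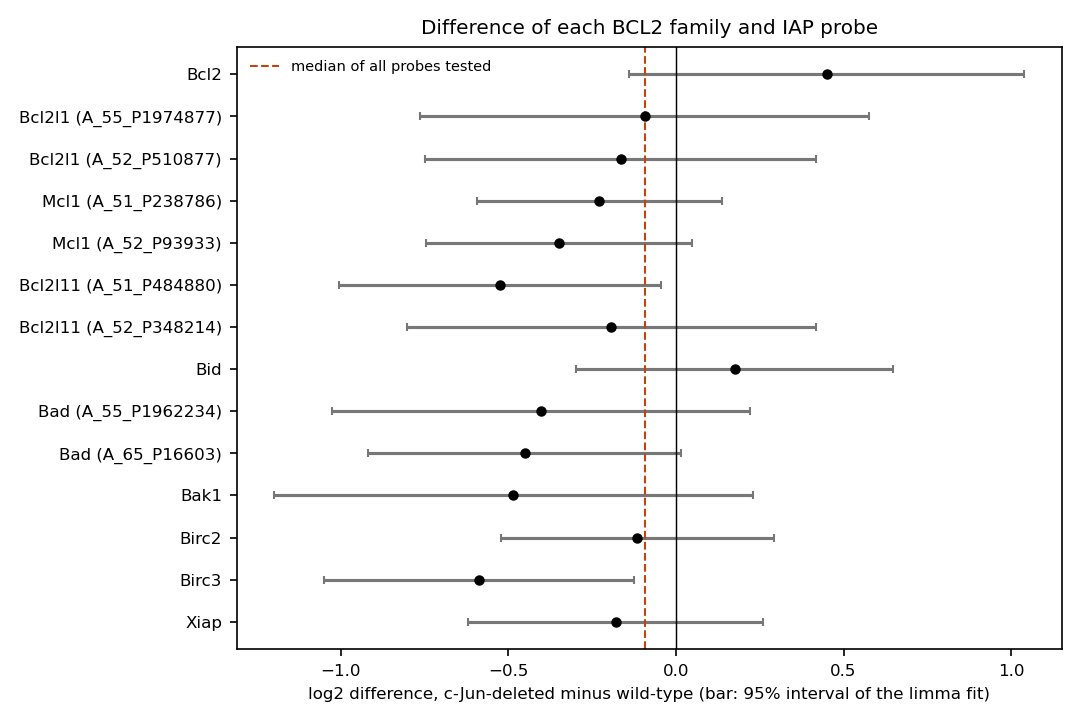
Log2 difference, c-Jun-deleted minus wild-type, of each of the 14 probes with the 95% interval of the limma fit, a solid line at 0 and a dashed line at the median of all probes tested, -0.09. The intervals of Birc3 and of Bcl2l11 probe A_51_P484880 lie below 0 before adjustment, and the other 12 include 0.

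A ratio of genes within an array does not depend on a scaling factor common to the whole array. Quantile normalization or another background correction can still alter it. A change of the ratio between arrays shows unequal change of the genes, without saying which of them changed. Over the 45 pairs of the 10 genes, groups did not overlap for 16, which is 35.6%, and for 34.9% of all pairs of named genes on the array. With every combination of the probes of each gene, 13 of the 16 pairs had groups apart in the same direction. Birc3, Bcl2 and Bid were each in 5 of these 16 pairs and Bad was in 0. The log2 ratio of Birc2 to Birc3 was -1.20 and -0.81 in c-Jun-deleted macrophages, against -1.52, -1.22 and -1.69 in wild-type. Its groups were thus narrowly apart, with c-Jun-deleted 1 next to wild-type 11. The ratio of Bcl2 to Bcl2l11, a survival gene over one that opposes it, was 2.50 and 2.91 in c-Jun-deleted macrophages, against 1.41, 1.77 and 2.02 in wild-type. That is a mean difference of 0.97 in log2, without overlap. With the other Bcl2l11 probe, A_52_P348214, that ratio was 3.67 and 4.27, against 2.92, 3.31 and 3.75, so the groups overlapped and the difference was 0.64. The ratio of Bcl2 to Birc3 was -2.30 and -1.59, against -3.09, -2.69 and -3.16, a mean difference of 1.04. The ratio of Mcl1 to Bcl2l11 was 9.16 and 9.17, against 8.75, 8.72 and 9.13, apart only on the brighter probes: with A_52_P348214 it was 10.33 and 10.52, against 10.26, 10.26 and 10.86, which overlap. The ratio of Bcl2l1 to Bak1 was 0.17 and 0.18, against -0.19, -0.28 and -0.18, and differed by 0.39 although both genes overlapped between the groups on their own. With the other Bcl2l1 probe, A_52_P510877, it was -5.42 and -5.04, against -5.44, -5.49 and -5.71, apart only narrowly.

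Averaged by role and set against the wild-type mean of each gene, the 3 survival genes stood at 0.00 and 0.09 in c-Jun-deleted 1 and 9, and at -0.15, 0.09 and 0.06 in wild-type 5, 11 and 14. The 3 BH3-only genes stood at -0.23 and -0.28, against 0.01, 0.00 and -0.01, and the 3 IAP genes at -0.30 and -0.29, against -0.02, -0.10 and 0.12. These averages of few genes carry no test, those of wild-type centre on 0 by construction, and genes of a role can offset each other. In c-Jun-deleted 1 and 9, Bid stood at 0.17 and 0.18, but Bcl2l11 at -0.61 and -0.44 and Bad at -0.24 and -0.57. Bad stood at 0.06, -0.33 and 0.27 in wild-type 5, 11 and 14. The mean difference was 0.04 for the survival, -0.25 for the BH3-only and -0.29 for the IAP genes, but 0.25, -0.04 and -0.08 with median centring.

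**Figure D4:**
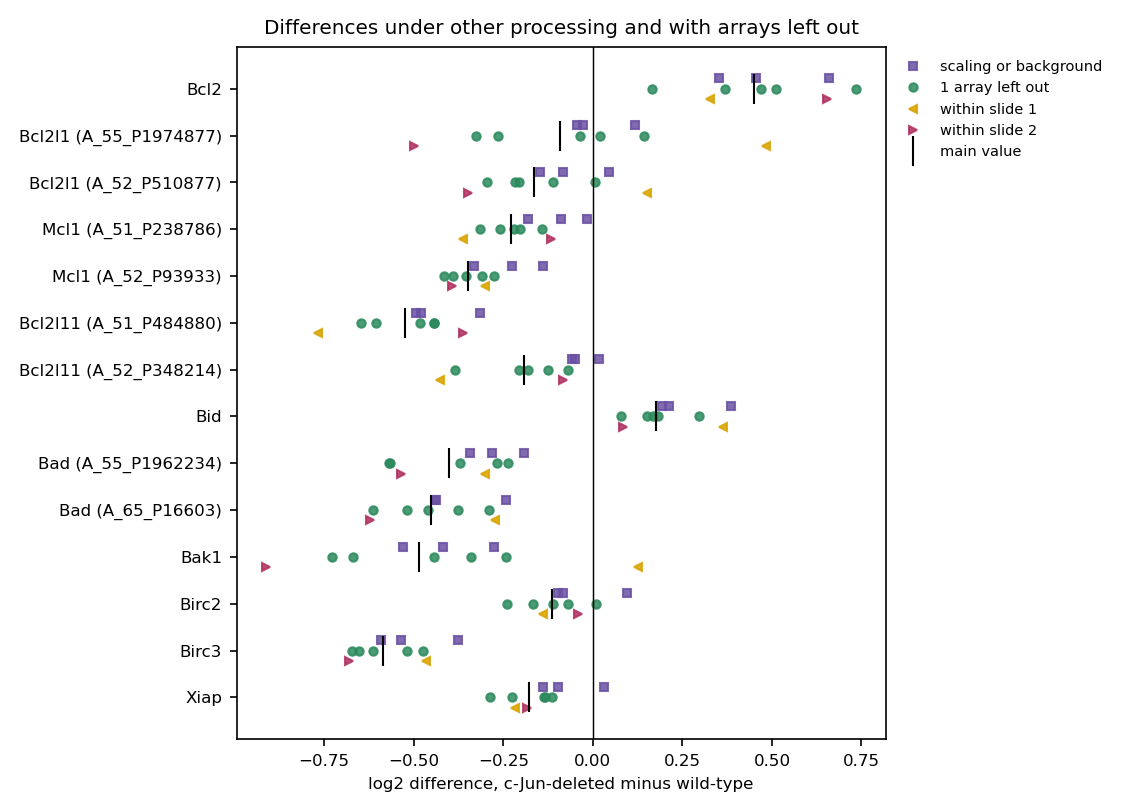
Log2 difference, c-Jun-deleted minus wild-type, of each probe under 3 other scalings or background corrections, with 1 array left out, and within each slide, beside the reported value. Birc3, Mcl1, Bad and Bcl2l11 probe A_51_P484880 stay below 0 and Bcl2 and Bid above 0 at every point drawn. Bcl2l1, Birc2, Xiap, Bak1 and the other Bcl2l11 probe cross 0 at 1 or more points. For a probe whose groups do not overlap, the points with 1 array left out or within a slide keep their sign by construction.

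The 3 genes with the widest range over the arrays were Bak1, Bcl2 and Birc3. By root mean square distance between log2 profiles, each centred over the 5 arrays, the nearest of 14670 other named genes to Bak1 were Gadd45b (0.041) and Il2rg (0.050). Nearest to Bcl2 were Entpd6 (0.054) and Fmnl1 (0.055), and nearest to Birc3 were Hbp1 (0.032) and Casp6 (0.037). Casp6, an effector caspase, stood at 2.52 and 2.36 in c-Jun-deleted macrophages, against 2.94, 2.78 and 3.17 in wild-type. With 5 arrays and many candidates, close profiles are easy to find, and these distances are a description.

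The other genes of the pathway were 63 in 8 lists, of which 61 had a probe and 56 were tested. Limma called 0 of the 56 at an adjusted p below 0.05. At an unadjusted p below 0.05, 8 were lower and 1 was higher, 16.1% in all (12.3% of all probes). The groups did not overlap for 25, or 44.6%, with 22 lower and 3 higher. Of all probes tested, 33.8% did not overlap, 20.5% lower and 13.3% higher. In these 56 genes 48 lay below 0, as did 61.3% of all probes, and the median difference was -0.30 (all probes -0.09). These shares over all probes are the ones to set beside the counts of the single lists that follow. Median centring adds 0.21 to each of these differences.

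Among the other BH3-only and related genes, Bnip3, a mitochondrial BH3-like protein and a hypoxia target, stood at 3.38 and 2.76 in c-Jun-deleted macrophages, against 4.78, 4.42 and 5.41 in wild-type (-1.80, SE 0.37, limma adjusted p = 0.233). Bmf, a BH3-only protein tied to the cytoskeleton, stood at 1.57 and 1.82, against 2.32, 2.54 and 2.69 (-0.82, SE 0.18, adjusted p = 0.255). Pmaip1, which encodes Noxa, a partner of Mcl1, stood at 1.48 and 1.51, against 2.01, 1.78 and 1.69 (-0.34, SE 0.16). In this list all 5 tested genes lay below 0, 3 of them without overlap. The brightest, Bnip3l, had a difference of -0.32 with overlap.

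Of the other survival genes Bcl2l2, which encodes Bcl-w, stood at 0.92 and 0.76 in c-Jun-deleted macrophages, against 1.17, 1.25 and 1.37 in wild-type (-0.43, SE 0.15, limma adjusted p = 0.374). Bcl2l12 was at 0.42 and 0.38, against 0.25, 0.10 and 0.30 (0.18, SE 0.14). Bcl2a1d, an NF-kB target with near-identical copies that a probe may not separate, was at 6.38 and 5.88, against 6.37, 6.83 and 6.80, with overlap (-0.54, SE 0.25). Among the other multi-domain proteins 1 of 6 genes did not overlap: Bok was lower (-1.18, SE 0.31, adjusted p = 0.289), but its signal exceeded background clearly on just 1 of 2 c-Jun-deleted and 2 of 3 wild-type arrays. The brightest of that list, Vdac2, a mitochondrial channel that binds Bak1, differed by -0.31 with overlap.

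Of the other IAP genes 2 of 6 did not overlap, Naip2 (-0.39, SE 0.21) and Naip6 (0.04, SE 0.13), both of a family of close copies whose probes may not tell them apart. Naip5, the brightest, differed by 0.11. Among the IAP antagonists 1 of 4 did not overlap, the protease gene Htra2 (-0.18, SE 0.16).

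Of the 9 apoptosome and caspase genes 8 lay below 0 and 5 did not overlap, all lower. Apaf1, the scaffold of the apoptosome, stood at -0.02 and -0.13 in c-Jun-deleted macrophages, against 0.45, 0.28 and 0.86 in wild-type (-0.60, SE 0.22, limma adjusted p = 0.385). Casp6 differed by -0.53 (SE 0.18, adjusted p = 0.365), and Casp12 by -1.16 (SE 0.49), well above background on 1 of 2 c-Jun-deleted arrays. Cycs, which encodes cytochrome c, overlapped (-0.18, SE 0.21).

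All 11 death receptor and adaptor genes lay below 0, and 6 of them did not overlap. Tnfaip3, an NF-kB target that restrains TNF signalling, stood at 3.70 and 3.38 in c-Jun-deleted macrophages, against 3.98, 3.94 and 4.46 in wild-type (-0.59, SE 0.23, limma adjusted p = 0.412). Fas was at 2.37 and 2.29, against 2.56, 2.88 and 2.94 (-0.46, SE 0.18, adjusted p = 0.404). Tnfrsf10b, the mouse TRAIL receptor, differed by -0.48 (SE 0.19), and Tnfrsf1a, the brightest, by -0.53 with overlap.

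Among 12 regulators of BCL2 proteins, 4 were lower and 1 was higher without overlap. Foxo3, a forkhead factor known to activate Bcl2l11, stood at -3.35 and -3.27 in c-Jun-deleted macrophages, against -2.45, -2.88 and -2.41 in wild-type (-0.73, SE 0.20, limma adjusted p = 0.301). Fbxw7, part of a ubiquitin ligase that marks Mcl1 and c-Jun for degradation, was at 1.42 and 1.39, against 1.13, 1.01 and 0.91 (0.39, SE 0.14, adjusted p = 0.388). The co-chaperone gene Bag3 differed by -0.48 (SE 0.21), and Bag1, the brightest, by -0.30 with overlap.

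**Figure D5:**
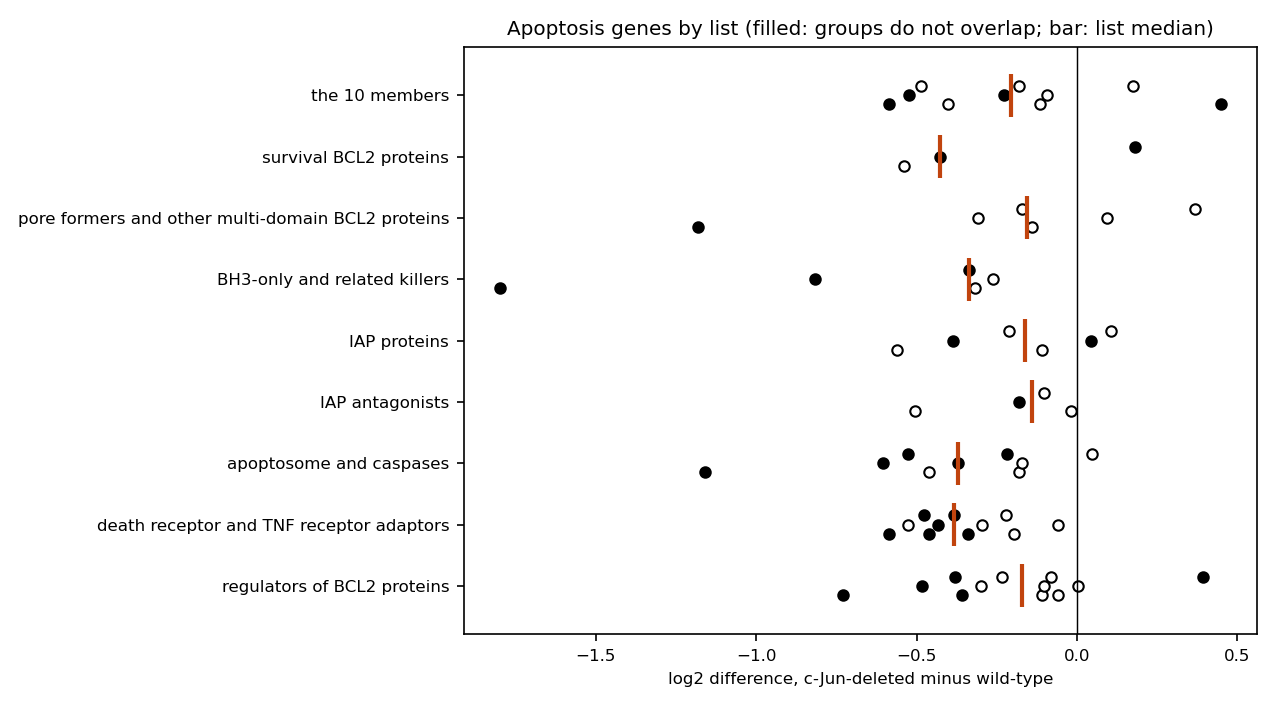
Log2 difference, c-Jun-deleted minus wild-type, of the 10 members and of each tested gene of 8 apoptosis lists, with filled points where the groups do not overlap and a bar at each list's median. The list medians lie between -0.43 and -0.14, and 48 of the 56 genes outside the members lie below 0.

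Markers of other cell types differed between the groups in either direction or overlapped. Large peritoneal macrophage markers summed to 303 and 352 in c-Jun-deleted 1 and 9, against 263, 123 and 152 in wild-type 5, 11 and 14, with 10 of 10 above 0. Groups did not overlap for 5 of the 10, all higher (33.8% of all probes tested in either direction). Gata6 overlapped (1.48 and 2.08, against 1.81, -1.07 and 1.29), as did Timd4 (4.83 and 4.11, against 4.31, 1.47 and 4.66), both lowest in wild-type 11. Mesothelial and stromal markers summed to 2.72 and 4.12, against 4.69, 10.5 and 8.15, with 9 of 9 below 0 and 1 of 11 listed markers not well above background on any array. General macrophage markers summed to 1038 and 1277, against 1603, 1290 and 1764, with 7 of 10 below 0. Lyz2, one of them and the site of LysM-Cre, stood at 4.46 and 8.52 in c-Jun-deleted macrophages, against 8.70, 8.76 and 9.18 in wild-type. Without Lyz2 the sums of the other 9 markers overlapped, at 1016 and 910, against 1187, 856 and 1185. Mast cell and neutrophil markers overlapped between the groups, with sums of 98.3 and 92.3, against 121, 67.8 and 41.2, and of 17.5 and 9.93, against 13.4, 12.0 and 18.9. Erythroid markers summed to 10.8 and 23.0, against 1.52, 1.09 and 0.67, with 5 of 7 above 0. Those 5 were globin genes, and Slc4a1 (-0.46) and Car1 (-0.06) lay lower without overlap. The part of any of these cells in the members' values was not tested.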

How the data were processed

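Per the file headers, the authors' deposited scanner files hold 1-colour intensity values from Feature Extraction 11.5.1.1 on an array designed for mm9, with the processed signal background-subtracted and not scaled between arrays. Their deposited 0 or 1 flags, an other kind of value, were used only to filter spots. Total RNA (50 ng) was labelled with Cy3, per the labels. Here log2 of the signal minus log2 of the array's 75th percentile (437 to 596) was used, with control and outlier-flagged spots left out, spots of a probe averaged, and probes kept that were well above background on at least 2 arrays (32864). Of these, 256 lacked a value on some array, leaving 32608. Transcript accessions were matched to symbols of GRCm38.p6: 28026 probes matched and 27655 did not. Each probe was tested with limma 3.58.1 in R 4.3.3 (2-sided, Benjamini-Hochberg over all probes, threshold 0.05, no covariate). A fixed rule named, of each pathway list, up to 3 genes without overlap by smallest p and the brightest gene, each by its brightest probe. With 2 arrays against 3, the smallest exact permutation p is 0.1, so none was run. The number of arrays limits the precision. Normexp (offset 50), an alternative, used the median spot and background signals. The authors' pooled series table holds none of the 14 probes and was not used. Fits were tested on simulated data. The members and lists were chosen with earlier results of these data known, and the promoter motifs after the lists. Ratios with every probe, role means by scaling and the macrophage sum without Lyz2 were added after seeing the data.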

Additional observations from a re-analysis of the deposited data

How the results depend on the processing

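With normexp, quantile normalization, the filters, the slide block, array weights, 1 row per gene, averaged probes and each array left out, limma called 0 probes on the whole array and 0 of the member and other pathway probes. Median centring called 223 probes, none of them a member or other pathway gene, with 79.2% of the probes at an unadjusted p below 0.05 higher, against 46.0% with the 75th percentile and 61.2% with quantile normalization. Member probes without overlap numbered 3 with median centring, where 29.5% of all probes tested did not overlap. They numbered 12 within slide 2, where c-Jun-deleted 9 stands alone, and 7 to 9 with 1 array left out. Groups of fewer arrays come apart more easily, and the share of all probes is not given for these settings. The counts of 12 and of 7 to 9 thus do not show a clearer separation of the members. The members' median was -0.094 with quantile normalization, 0.0068 with median centring, and -0.28 to -0.17 with 1 array left out.

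Under median centring these differences turned positive: Bcl2l1 (0.12 and, on A_52_P510877, 0.045), Bcl2l11 A_52_P348214 (0.018), Birc2 (0.095), Xiap (0.031), Htra2 (0.032) and Cycs (0.030). Within slide 1 the sign turned for Bcl2l1 (0.48 and 0.15), Bak1 (0.13), Bcl2a1d (0.0094), Vdac2 (0.078), Naip5 (-0.015), Cycs (0.23), Gadd45b (0.14) and Il2rg (0.14). Array weights put Bcl2l1 at 0.083. With 1 array left out, Bcl2l1 ran from -0.33 to 0.14 (positive without c-Jun-deleted 9 or wild-type 11) and on A_52_P510877 from -0.30 to 0.0056 (positive without wild-type 11). Likewise Birc2 ran from -0.24 to 0.0090 (positive without c-Jun-deleted 1) and Cycs from -0.38 to 0.019 (positive without c-Jun-deleted 9). The cause was not tested. The groups share only mouse numbers 1 and 2 in the source names, whose deviations correlated at -0.07 and 0.18; with these as a replicate block, 0 probes passed and the members' median was -0.17. The authors' table was not run as an alternative.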
